A study of Mus musculus with 12 samples.

Results

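A set of 10 genes whose proteins shorten the life of messenger RNA in T cells was followed through knockout of Cd83 and through activation of regulatory T cells (Treg): Zfp36, Zfp36l1, Zfp36l2, Zc3h12a, Zc3h12c, Zc3h12d, Rc3h1, Rc3h2, Btg1 and Btg2. They were taken as every probe, other than control probes, that carries one of these gene names in the scanner files. That gave 12 probes for 10 genes, of 55681 probes on the array, and all 10 genes were among the 18545 genes tested. The arrays hold RNA of Treg sorted from the spleens of female C57BL/6 mice, 3 arrays in each of 4 groups. The groups are conditional Cd83 knockout cells (KO; CD83cKO in the labels) after 3 h of stimulation by anti-CD3 and anti-CD28 antibodies, wild-type cells (WT) after the same 3 h, KO cells not activated (0 h) and WT cells not activated (0 h). KO mice were 10 weeks old, except for the mice behind replicate 3 at 3 h and replicate 3 at 0 h, which were 21 weeks old, and WT mice were 9 weeks old. No label names the Cre line behind the knockout. The series lists fewer mice than arrays and ties no array to a mouse, so the p-values below measure the spread between arrays, some of which may share an animal.

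The ZFP36 proteins (Zfp36, also called tristetraprolin, with Zfp36l1 and Zfp36l2) bind AU-rich elements, short stretches of A and U in the untranslated end of cytokine and other transcripts, and recruit the CCR4-NOT complex, which removes the poly(A) tail. Regnase-1, encoded by Zc3h12a, and its relatives from Zc3h12c and Zc3h12d are endonucleases that cut stem-loops in such transcripts, and Roquin-1 and Roquin-2, encoded by Rc3h1 and Rc3h2, bind similar stem-loops and recruit deadenylases. Btg1 and Btg2 tie the deadenylases to messenger RNA and are known for keeping T cells quiescent, and Regnase-1 and the Roquins are cleaved by the protease MALT1 after T cell receptor stimulation.

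Some of the members' own probes hold AU-rich sequence of the kind that ZFP36 proteins bind. Each array probe has 60 bases, and the stretches below, of 30 bases each, are shown for the probes that hold the AU-rich pentamer ATTTA. In capitals is the nonamer TTATTTATT for Zfp36, the sequence that ZFP36 proteins prefer, and the pentamer for the others.
Zfp36: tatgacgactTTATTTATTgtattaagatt
Zc3h12a: aggcgagATTTAaatattttaaatgaaaaa
Btg1, far probe: taaatcagtcggATTTAtgaataacttcat
Zc3h12d: tactcggttcATTTAggccacggttccatg
The pentamer lies in 7.71% of all 55681 probes and the nonamer in 0.144% of them, both read in the strand of the probe, and a match is a description of the probe and not a binding site. The Zfp36 probe has a GC content of 21.7%, and 0.449% of probes on the array have that GC content or less. It lies at chr7:29161940-29161999 of mm9, the build of the files' coordinates, with its first base at position 1568 of the transcript. The Zc3h12a probe has a GC content of 31.7% and lies at chr4:124795870-124795929.

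Btg1 and Rc3h1 have 2 probes each, called near and far here by their position along the transcript. The Btg1 probes start at positions 1633 and 4920 of the transcript, at chr10:96082071-96082130 and chr10:96085358-96085417. They are 3287 bases apart both in the transcript and in the genome, so no intron lies between them. The Rc3h1 probes start at positions 3634 and 10920, and the near one crosses an exon junction, since its 60 bases span 1918 bases of the genome (chr1:162895873-162897790). For each gene the brighter probe stands for the gene in the counts, the near probe for Btg1 and the far probe for Rc3h1. The other probes lie at chr12:81209022-81209081 (Zfp36l1), chr17:84583415-84583474 (Zfp36l2), chr9:51923572-51923631 (Zc3h12c), chr10:7589850-7589909 (Zc3h12d), chr1:162905017-162905076 (Rc3h1, far), chr2:37230722-37230781 (Rc3h2) and chr1:135972094-135972153 (Btg2). Which parts of the transcripts are coding was not looked up, because the annotation used here does not give it.

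Promoters are shown for Btg2 and Zfp36, the members past the threshold in WT activation whose windows hold a motif searched. Zfp36 entered the test through the WT arrays at 3 h, so its call there does not count as support. The windows are the 250 bases before the start in RefSeq (GRCm38.p6), on the minus strand, chr1:134079156-134079405 for Btg2 and chr7:28379229-28379478 for Zfp36. Capitals mark the cyclic AMP response element TGACGTCA and the EGR motif GCGNGGGCG in Btg2, and the EGR motif and the CArG box of serum response factor in Zfp36.
Btg2: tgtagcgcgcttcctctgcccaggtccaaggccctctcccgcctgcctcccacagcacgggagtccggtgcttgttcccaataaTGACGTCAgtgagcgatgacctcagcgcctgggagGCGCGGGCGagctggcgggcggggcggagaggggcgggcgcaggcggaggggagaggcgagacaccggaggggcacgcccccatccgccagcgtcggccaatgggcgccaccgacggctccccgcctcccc
Zfp36: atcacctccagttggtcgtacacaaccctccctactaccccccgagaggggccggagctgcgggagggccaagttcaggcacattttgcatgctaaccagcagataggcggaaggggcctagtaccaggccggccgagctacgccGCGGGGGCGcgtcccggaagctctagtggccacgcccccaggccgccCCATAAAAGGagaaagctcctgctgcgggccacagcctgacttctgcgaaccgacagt
The RefSeq table holds 10 promoter windows for 9 of the members, 2 of them for Zc3h12c, and Zfp36l2 has no entry. Both strands were searched. TGACGTCA was found in 1.55% of all 32851 windows and among the members in that of Btg2. The CArG box was found in 1.47% of windows and among the members in that of Zfp36, and GCGNGGGCG in 4.7% of windows and in both of these genes. The AP-1 motif TGANTCA (6.75% of windows) was found in Zfp36l1 and Rc3h1, the NFAT motif GGAAAA (20.4%) in Zfp36l1, and the NF-kB motif GGGANTTCC (1.43%) in none of the members' windows. The searched motifs do not overlap each other in the windows of Btg2 and Zfp36.

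Some facts about the arrays bear on the results. Of 3 slides, the first carried all 6 KO arrays, the second WT at 0 h and the third WT at 3 h. Genotype therefore cannot be told apart from slide, nor can activation in WT, whereas activation in KO was measured within the first slide. Per the labels' protocols 1 sample at 0 h was amplified from less RNA than the others, and with no genotype given it was tied to no array; each array was left out in turn. The KO arrays from 21-week mice stood apart: the mean of 10 T cell markers, as a log2 level relative to the WT mean at 0 h, was -2.67 and -1.83 there, and that of 6 plasma cell markers was 7.17 and 6.72, against -0.62 to -0.28 and -0.04 to 2.20 on the other 4 KO arrays. The activation differences of the 10 genes and the counts called are therefore also given without these 2 arrays, from a fit over 10 arrays. Of 12 macrophage and monocyte markers, 8 were lower after 3 h in KO and 9 in WT. Their mean level was -0.23 to 0.90 in KO at 3 h, -2.36 to -1.79 in WT at 3 h, 2.09 to 2.63 in KO at 0 h and -0.41 to 0.40 in WT at 0 h. Their part in the results below was not tested, and in sorted bulk samples fewer cells of a type and less RNA per cell cannot be told apart. The Foxp3 probe was well above background on the 6 KO arrays only. It read -6.27 to -2.86 in KO and -9.62 to -8.63 in WT. The probes of the other 7 Treg markers and of all 10 T cell markers were well above background on all 12 arrays. Their levels were not alike, however. The mean of 8 Treg markers, relative to the WT mean at 0 h, was -1.36 and -1.94 on the 21-week KO arrays at 3 h and 0 h. On the other 4 KO arrays it was -0.15 to 0.36. Cd83 itself read 1.06, 1.07 and 1.92 in KO at 3 h against 4.21, 3.69 and 3.65 in WT at 3 h, and 0.75, 0.29 and 0.23 in KO at 0 h against 2.36, 2.17 and 2.39 in WT at 0 h, in the direction of the labels.

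Levels are log2 signals with the 75th percentile of detected probes on each array set to 0, and they are compared between arrays for 1 probe, never between probes. A gene counts as called where limma's moderated test, over all 18545 genes, gives an adjusted p (Benjamini-Hochberg) under 0.05. Of the 10 genes, 8 were measured by probes well above background on 11 or 12 of the 12 arrays. The Zfp36 and Zc3h12a probes were dim. Each passed the scanner's detection flag on 2 of 3 KO and 3 of 3 WT arrays at 3 h, and on 1 of 3 KO and 1 of 3 WT arrays at 0 h. These 2 genes entered the test through the WT arrays at 3 h, so a higher level there was built into their selection and does not count as support.

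**Figure D1:**
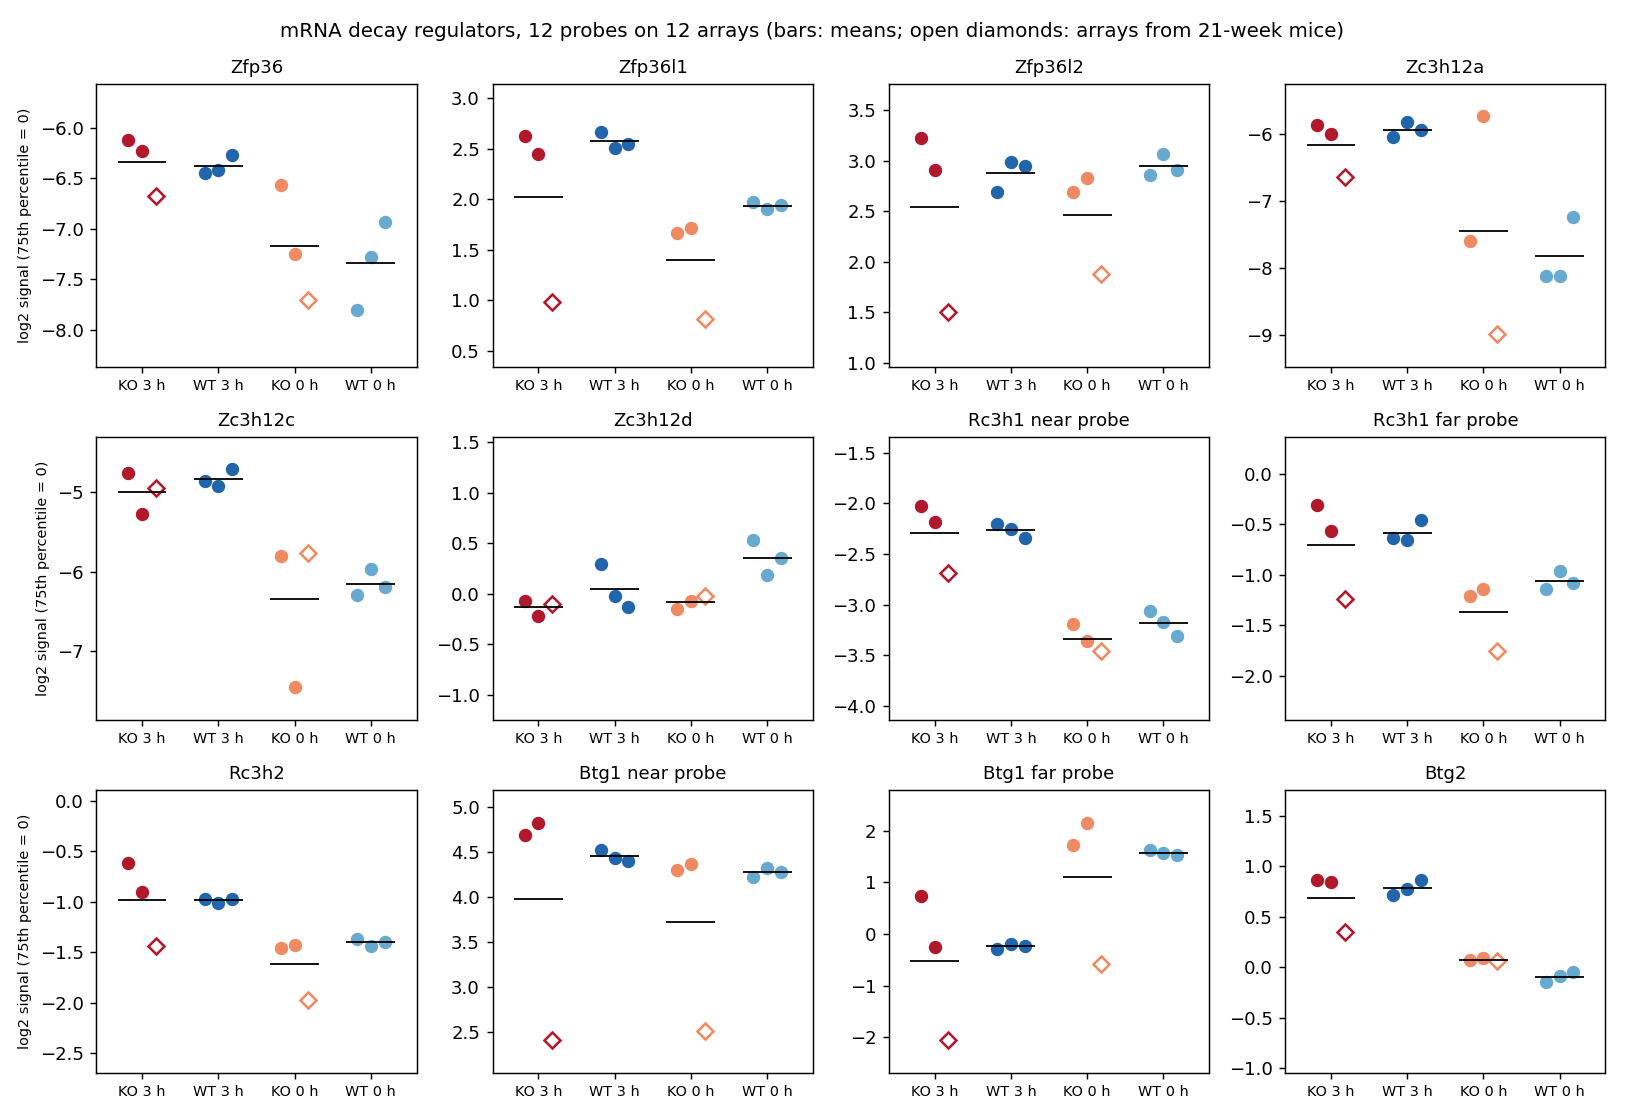
Log2 signal of the 12 probes on each of the 12 arrays, by group from left to right KO 3 h, WT 3 h, KO 0 h and WT 0 h; points are arrays, bars are group means and open diamonds are the 2 arrays from 21-week mice. In the Btg2 panel every array at 3 h, from 0.35 to 0.86, lies above every array at 0 h, from -0.15 to 0.09, and in the Btg1 panels the open diamonds lie well below the other KO arrays of their group.

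Some of these genes were higher in activated Treg of each genotype, and none was called lower. After 3 h in KO, Zc3h12c and Btg2 were called higher, 2 of 10, where 7.38% of all genes tested were called higher. In WT, Zfp36, Zc3h12c and Btg2 were called higher, 3 of 10, where 13.3% of all genes were. Leaving out the 2 genes that entered the test through WT at 3 h, the counts are 2 of 8 in KO and 2 of 8 in WT. None of the 10 was called lower, where 9.79% of all genes were called lower in KO and 16.6% in WT. The median log2 difference of the 10 genes was 0.62 in KO and 0.56 in WT, against -0.0428 and -0.14 over all genes. These medians include the 2 genes whose rise in WT was built into their selection, and were not taken without them.

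The counts changed with the arrays from 21-week mice. When these were left out, 6 of the 10 were called higher in KO (19.5% of all 19132 genes then tested) and 7 of the 10 in WT (23.3%), again with none called lower (25.8% of all genes in KO and 30.9% in WT). Leaving out the same 2 dim genes, these counts are 6 of 8 in KO and 5 of 8 in WT. Zfp36l1, Rc3h1, Rc3h2 and Btg1 joined Zc3h12c and Btg2 in KO. In WT, Zfp36l1, Zc3h12a, Rc3h1 and Rc3h2 joined the 3 genes of the 12-array fit. Btg1 is counted here by its near probe. Its far probe, tested on its own without the 21-week arrays, was called lower in each genotype. The differences were -1.70 in KO (adjusted p = 0.00242 in limma) and -1.82 in WT (adjusted p = 0.000396). On all 12 arrays, the 3 arrays at 3 h lay above the 3 at 0 h for 2 of 10 genes in KO (10.9% of all genes) and for 8 of 10 in WT (29.0%), or 2 of 8 and 6 of 8 without the 2 dim genes. Zfp36l2 and Zc3h12d were the exceptions in WT.

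**Figure D2:**
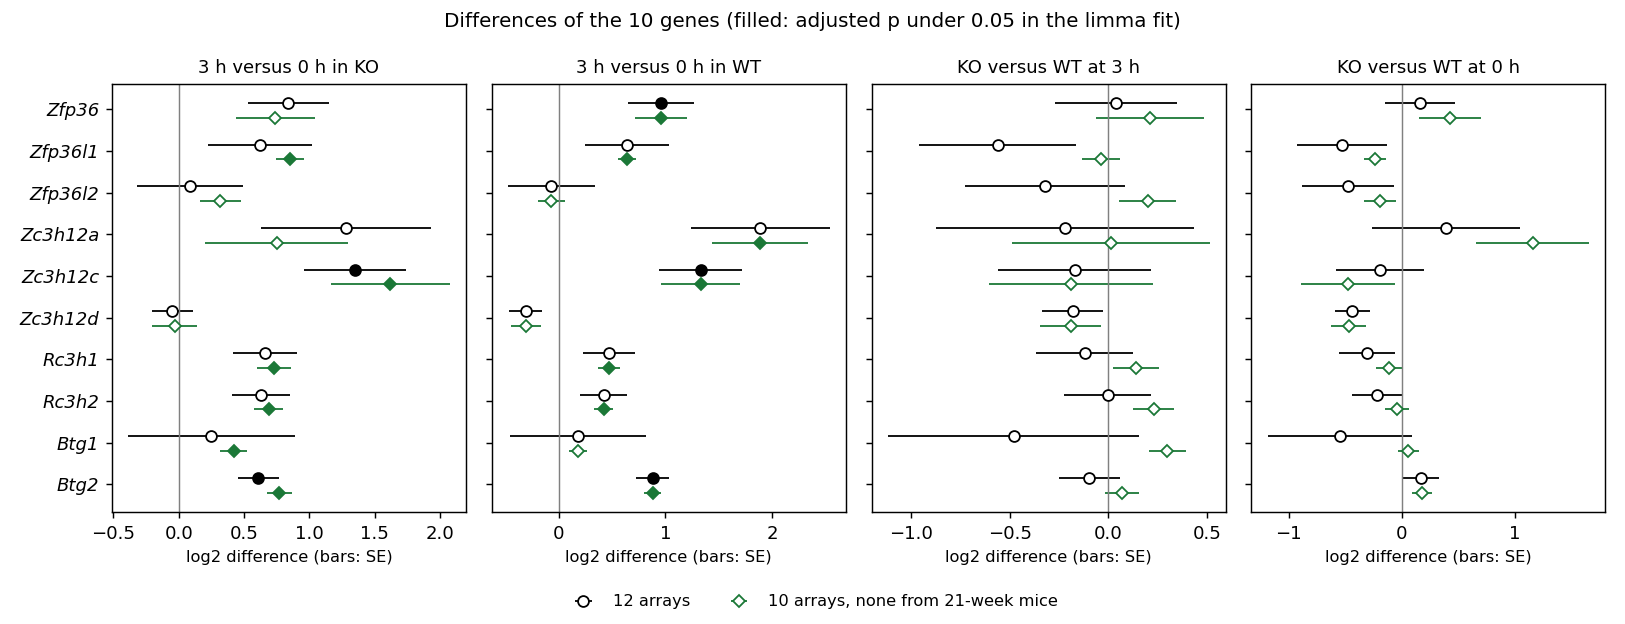
Log2 difference of each of the 10 genes, with its standard error, in KO activation, WT activation, KO against WT at 3 h and KO against WT at 0 h; black circles are the fit over 12 arrays, green diamonds the fit without the 2 arrays from 21-week mice, and filled symbols have an adjusted p under 0.05. Filled symbols appear in the activation panels and none in the panels of KO against WT.

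Among the CCCH proteins that bind AU-rich elements, Zfp36 passed the threshold in WT, Zfp36l1 did so once the 21-week arrays were left out, and Zfp36l2 did not. Zfp36 read -6.12, -6.23 and -6.68 in KO at 3 h against -6.57, -7.25 and -7.71 in KO at 0 h. These groups overlapped, with the first KO array at 0 h above the third at 3 h, and the log2 difference was 0.84 ± 0.309 (SE; adjusted p = 0.0916 in limma), or 0.74 ± 0.300 without the 21-week arrays (adjusted p = 0.0783). In WT, Zfp36 read -6.45, -6.42 and -6.27 at 3 h against -7.81, -7.28 and -6.93 at 0 h. All 3 arrays at 3 h were higher, by 0.96 ± 0.309 (adjusted p = 0.0403 in limma), or 1.95-fold, with an adjusted p of 0.0113 over 10 arrays. Because the probe was kept through these WT arrays at 3 h, this rise was built into its selection and does not count as support. The WT call was lost without WT replicate 1 or 2 at 0 h or without any 1 WT array at 3 h. It was also lost without KO replicate 2 at 0 h or at 3 h. Over these fits the adjusted p in limma ran from 0.0527 to 0.146. With normexp background correction the WT difference was 0.35. That correction adds an offset of 50 units to every signal, which by itself shrinks the differences of dim probes. On the arrays where Zfp36 was not well above background, its processed signal was 8.73 to 19.3 units, against 22.5 to 38.2 units where it was.

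Zfp36l1, which in lymphocytes overlaps in function with Zfp36l2, read 2.63, 2.45 and 0.98 in KO at 3 h against 1.67, 1.72 and 0.82 in KO at 0 h. In WT it read 2.67, 2.51 and 2.55 at 3 h against 1.97, 1.90 and 1.94 at 0 h. The low value of each KO group belongs to the 21-week mouse, and the WT groups do not overlap. The log2 differences were 0.62 ± 0.397 in KO (adjusted p = 0.314 in limma) and 0.64 ± 0.397 in WT (adjusted p = 0.254). Over the 10 other arrays they were 0.85 ± 0.108 in KO (adjusted p = 0.000567) and 0.64 ± 0.0879 in WT (adjusted p = 0.000502).

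Zfp36l2 read 3.23, 2.91 and 1.5 in KO at 3 h against 2.69, 2.83 and 1.88 in KO at 0 h, and 2.69, 2.99 and 2.95 in WT at 3 h against 2.86, 3.07 and 2.91 in WT at 0 h. The groups overlapped in each genotype. Its difference was -0.0727 ± 0.407 in WT (adjusted p = 0.921 in limma), and -0.0727 ± 0.128 without the 21-week arrays (adjusted p = 0.659). In KO it was 0.0858 ± 0.407 (adjusted p = 0.911), and 0.32 ± 0.157 without those arrays (adjusted p = 0.134).

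Of the Regnase genes, Zc3h12c was called higher after 3 h in each genotype and Zc3h12d in neither. Zc3h12a was called higher in WT once the 21-week arrays were left out, a rise built into its selection. Zc3h12c read -4.76, -5.27 and -4.94 in KO at 3 h against -5.81, -7.46 and -5.77 in KO at 0 h, and the value of -7.46 was the 1 array on which its probe was not well above background. In WT it read -4.85, -4.92 and -4.71 at 3 h against -6.30, -5.97 and -6.19 at 0 h. Neither genotype's groups overlapped. The log2 differences were 1.35 ± 0.389 in KO (2.56-fold; adjusted p = 0.0394 in limma) and 1.33 ± 0.389 in WT (2.51-fold; adjusted p = 0.0276). The size in KO rests in part on the array at -7.46: without it the KO difference was 0.80 (adjusted p = 0.0369). Without the 21-week arrays the differences were 1.62 ± 0.456 in KO (adjusted p = 0.0217) and 1.33 ± 0.372 in WT (adjusted p = 0.0171). Each call was lost when any of several single arrays was left out: the KO call without KO replicate 1 or 2 at 3 h or any WT array, with adjusted p from 0.0589 to 0.114, and the WT call without any WT array, with adjusted p from 0.0571 to 0.0851. With normexp background correction and its offset of 50 units, the differences were 0.57 in KO (adjusted p = 0.0142 in limma) and 0.71 in WT (adjusted p = 0.00312).

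For Zc3h12a, which encodes Regnase-1, the group means ranged over 1.89 on the log2 scale, with most arrays at 0 h not well above background. It read -5.86, -5.99 and -6.63 in KO at 3 h against -7.60, -5.73 and -8.98 in KO at 0 h. The second KO array at 0 h lay above all the others, and the groups overlapped (1.28 ± 0.653; adjusted p = 0.206 in limma). In WT, Zc3h12a read -6.04, -5.82 and -5.94 at 3 h against -8.12, -8.12 and -7.23 at 0 h. All 3 h arrays were higher, by 1.89 ± 0.653 (3.70-fold, adjusted p = 0.0529 in limma). Its probe entered the test through these arrays at 3 h, so the rise in WT does not count as support. Over the 10 arrays the adjusted p in WT was 0.00814 with the same difference, and the KO difference was 0.75 ± 0.549 (adjusted p = 0.296). The size rests on signals near background, from 8.4 to 48 units in WT. With normexp background correction and quantile normalization, the WT difference was 0.55 (adjusted p = 0.0434 in limma). The offset of 50 units in that correction by itself shrinks differences between signals this dim, so the drop does not measure the part of background.

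Zc3h12d read -0.07, -0.22 and -0.10 in KO at 3 h against -0.15, -0.07 and -0.02 in KO at 0 h. In WT it read 0.30, -0.02 and -0.13 at 3 h against 0.53, 0.19 and 0.36 at 0 h. The groups overlapped in each genotype. Its log2 difference was -0.0475 ± 0.155 in KO (adjusted p = 0.871 in limma) and -0.31 ± 0.155 in WT (adjusted p = 0.165), and -0.032 ± 0.169 (adjusted p = 0.891) and -0.31 ± 0.138 (adjusted p = 0.0945) over 10 arrays.

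Of all genes tested, those whose centred levels over the 12 arrays lay nearest to Zc3h12c were a noncoding transcript that the files name only by its position (root mean square difference 0.266 on the log2 scale), 4930544D05Rik (0.330) and Pogk (0.334). Pogk was higher by 1.32 in KO (adjusted p = 0.00715 in limma) and by 1.26 in WT (adjusted p = 0.00478). For Zc3h12a the nearest, Gm527, lay farther off, at 0.514.

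For the Roquin genes the calls depended on the probe and on the 21-week arrays. Rc3h1 by its far probe read -0.31, -0.57 and -1.24 in KO at 3 h against -1.21, -1.14 and -1.76 in KO at 0 h, and -0.64, -0.66 and -0.46 in WT at 3 h against -1.14, -0.96 and -1.08 in WT at 0 h. The KO groups overlapped through the 21-week array at 3 h, and the WT groups did not. The differences were 0.66 ± 0.247 in KO (adjusted p = 0.0949 in limma) and 0.47 ± 0.247 in WT (adjusted p = 0.177). In the fit over 10 arrays they were 0.73 ± 0.130 (adjusted p = 0.00284) and 0.47 ± 0.106 (adjusted p = 0.00606).

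The near probe of Rc3h1, which crosses an exon junction, read -2.02, -2.18 and -2.69 in KO at 3 h against -3.19, -3.36 and -3.46 in KO at 0 h, and -2.20, -2.25 and -2.34 in WT at 3 h against -3.06, -3.17 and -3.31 in WT at 0 h. No array at 3 h overlapped the arrays at 0 h. With every probe tested on its own, it was higher by 1.04 ± 0.189 in KO (adjusted p = 0.00635 in limma; 7.44% of all 26261 probes were called higher) and by 0.92 ± 0.189 in WT (adjusted p = 0.00588; 13.7% of probes). Over 10 arrays the differences were 1.18 ± 0.131 in KO (adjusted p = 0.000335) and 0.92 ± 0.107 in WT (adjusted p = 0.000224).

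Rc3h2 read -0.62, -0.90 and -1.44 in KO at 3 h against -1.46, -1.43 and -1.97 in KO at 0 h, and -0.97, -1.01 and -0.97 in WT at 3 h against -1.37, -1.44 and -1.40 in WT at 0 h. The WT groups were tight and apart, and the KO groups overlapped through the 21-week array at 3 h. Its differences were 0.63 ± 0.220 in KO (adjusted p = 0.0755 in limma) and 0.42 ± 0.220 in WT (adjusted p = 0.180), and without the 21-week arrays 0.69 ± 0.112 (adjusted p = 0.00193) and 0.42 ± 0.0917 (adjusted p = 0.00561).

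Of the antiproliferative BTG genes, Btg2 rose after 3 h in each genotype, with 0.86, 0.84 and 0.35 in KO at 3 h against 0.07, 0.09 and 0.06 in KO at 0 h. In WT it read 0.72, 0.77 and 0.86 at 3 h against -0.15, -0.09 and -0.05 at 0 h. No groups overlapped, and the lowest array at 3 h was that of the 21-week mouse. The log2 differences were 0.61 ± 0.156 in KO (1.53-fold; adjusted p = 0.0254 in limma) and 0.88 ± 0.156 in WT (1.84-fold; adjusted p = 0.00295), and 0.77 ± 0.0945 and 0.88 ± 0.0772 without the 21-week arrays (adjusted p = 0.000487 and 5.3e-05). The WT call held whichever array was left out, while the KO call was lost without any of the 4 KO arrays from 10-week mice (adjusted p from 0.0555 to 0.0873) and with no shift between arrays (0.31, adjusted p = 0.618). The promoter window of Btg2, shown above, holds the cyclic AMP response element, and a part of that motif in the rise was not tested.

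Btg1 gave 2 different answers, 1 for each probe. Its near probe read 4.69, 4.83 and 2.41 in KO at 3 h against 4.30, 4.37 and 2.51 in KO at 0 h, and 4.53, 4.44 and 4.40 in WT at 3 h against 4.23, 4.32 and 4.28 in WT at 0 h. By this probe Btg1 was not called in either genotype (0.25 ± 0.638 in KO, adjusted p = 0.831 in limma; 0.18 ± 0.638 in WT, adjusted p = 0.868), and without the 21-week arrays it was higher in KO by 0.42 ± 0.101 (adjusted p = 0.0108) and by 0.18 ± 0.0825 in WT (adjusted p = 0.102).

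The far Btg1 probe moved the other way. It read 0.74, -0.26 and -2.06 in KO at 3 h against 1.73, 2.16 and -0.58 in KO at 0 h, and -0.30, -0.19 and -0.23 in WT at 3 h against 1.63, 1.58 and 1.53 in WT at 0 h. The WT groups lay far apart, with 3 h below 0 h, and in KO the 21-week array was the lowest of each group. With every probe tested on its own the far probe's differences were -1.63 ± 0.75 in KO (adjusted p = 0.165 in limma) and -1.82 ± 0.75 in WT (adjusted p = 0.0947). With 10 arrays they were -1.70 ± 0.290 (adjusted p = 0.00242; 24.1% of all probes were called lower) and -1.82 ± 0.237 (adjusted p = 0.000396; 29.0% of probes).

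Taking the far minus the near probe within each array removes what both share. This difference for Btg1 was -3.95, -5.09 and -4.47 in KO at 3 h against -2.58, -2.21 and -3.08 in KO at 0 h, and -4.83, -4.63 and -4.63 in WT at 3 h against -2.60, -2.74 and -2.75 in WT at 0 h. Every array at 3 h, those of the 21-week mice included, lay below every array at 0 h. The 21-week KO array stayed the lowest of its group at 0 h (-3.08), and at 3 h (-4.47) it lay between the other KO arrays. Fitted in limma across the 2964 genes with a near and a far probe of the same transcript, it changed by -1.88 ± 0.278 in KO (3.69-fold; adjusted p = 0.00669) and by -2.0 ± 0.278 in WT (4.0-fold; adjusted p = 0.00178). Of these genes, 6.82% were called lower in KO and 15.8% in WT, and Btg1 ranked 24 and 25 from the lowest of 2964. Left without the 21-week arrays, the fit gave changes of -2.13 ± 0.317 in KO (adjusted p = 0.00561) and -2.0 ± 0.259 in WT (adjusted p = 0.00138). Fitted on the 6 KO arrays alone the KO change was the same size with an adjusted p of 0.129. This comparison was added after the Btg1 probes were seen to differ.

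For Rc3h1 the same difference was 1.71, 1.61 and 1.45 in KO at 3 h against 1.99, 2.22 and 1.70 in KO at 0 h, and 1.56, 1.59 and 1.88 in WT at 3 h against 1.92, 2.21 and 2.23 in WT at 0 h. The KO groups overlapped, with 1.71 at 3 h just above 1.70 at 0 h, and the WT groups did not. Its change was -0.38 ± 0.157 in KO (adjusted p = 0.190 in limma) and -0.44 ± 0.157 in WT (adjusted p = 0.0809, and 0.0396 without the 21-week arrays).

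**Figure D3:**
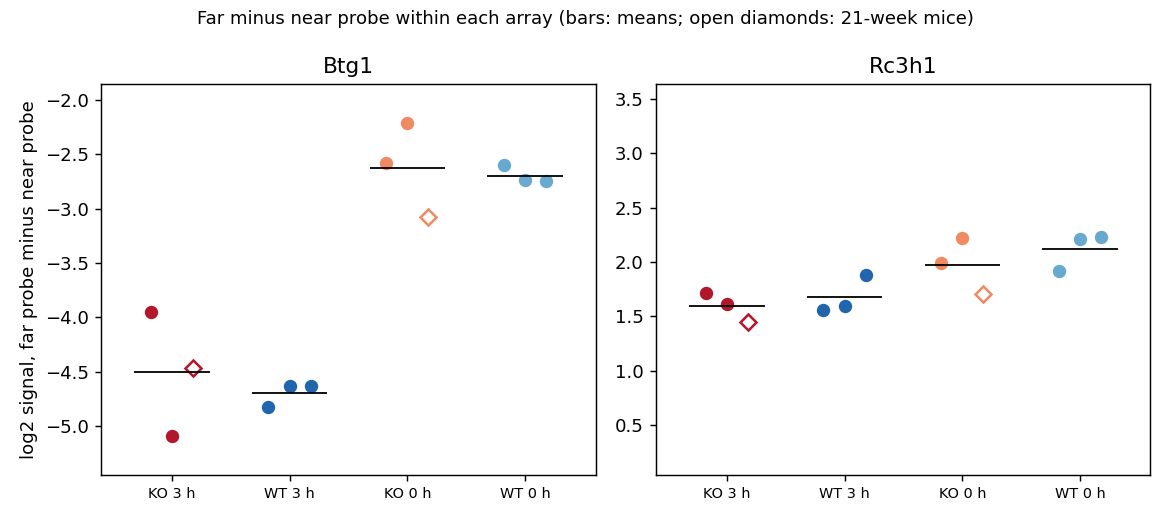
Log2 signal of the far probe minus that of the near probe within each array for Btg1 and Rc3h1, by group from left to right KO 3 h, WT 3 h, KO 0 h and WT 0 h; points are arrays, bars are group means and open diamonds are arrays from 21-week mice. The Btg1 values at 3 h, from -5.09 to -3.95, lie below those at 0 h, from -3.08 to -2.21.

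None of the 10 genes passed the threshold between KO and WT. At 3 h, 0 of 10 were called between KO and WT, where limma called 1.45% of all genes, and at 0 h 0 of 10, where it called 2.08%. Without the 21-week arrays the counts were again 0 of 10 at 3 h (1.85% of all genes) and 0 of 10 at 0 h (6.51%). At 3 h the log2 differences lay between -0.56 for Zfp36l1 and 0.0373 for Zfp36, with a median of -0.17. Without the 21-week array they lay between -0.19 and 0.30 with a median of 0.11, so the sign of the median turned. Zfp36l1 was then at -0.0363, and Btg1 by its near probe at 0.30 ± 0.0922 (95% interval 0.0903 to 0.52; adjusted p = 0.190 in limma). On 12 arrays the 95% interval for Rc3h2 at 3 h ran from -0.49 to 0.49, and that for Btg2 from -0.44 to 0.25. For the dim Zc3h12a it ran from -1.68 to 1.23, so that a 2-fold difference either way lies inside it.

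The smallest p between genotypes at 0 h was that of Zc3h12d. Its values of -0.15, -0.07 and -0.02 in KO at 0 h lay below the values of 0.53, 0.19 and 0.36 in WT at 0 h. The difference was -0.44 ± 0.155 (adjusted p = 0.210 in limma; -0.47 ± 0.154 and adjusted p = 0.103 without the 21-week array). Zfp36l1 and Zfp36l2 were also lower on every KO array at 0 h than on every WT array, which made 3 of 10 genes, where 14.8% of all genes tested lay so. Btg2 was higher on every KO array at 0 h (0.06 to 0.09) than on every WT array (-0.15 to -0.05), 1 of 10 genes, where 16.9% of all genes lay so, and its difference was 0.17 ± 0.156. The differences of Zfp36l1 and Zfp36l2, -0.53 ± 0.397 (adjusted p = 0.569 in limma) and -0.48 ± 0.407 (adjusted p = 0.611), were -0.24 ± 0.0983 (adjusted p = 0.159) and -0.19 ± 0.143 (adjusted p = 0.426) without the 21-week array.

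In each KO group the lowest reading was that of the 21-week mouse for every gene but Zc3h12c and Zc3h12d, and for both probes of Btg1 and Rc3h1. For Btg2 at 0 h the gap was small (0.06 against 0.07 and 0.09). At 0 h the 10-week KO arrays also lay below every WT array for Zfp36l1 (1.67 and 1.72, against 1.90 to 1.97) and Zfp36l2 (2.69 and 2.83, against 2.86 to 3.07). Btg1 by its near probe read 2.41 and 2.51 on the 21-week arrays against 4.30 to 4.83 on the other KO arrays. On the same arrays the T cell marker mean was low and the plasma cell marker mean high, by the values given above, and the mean of 3 neutrophil markers was 5.69 and 7.07 against -1.04 to 1.12 on the other KO arrays. The part of these in the low readings was not tested. Zc3h12c and Zc3h12d did not share the pattern, with readings on the 21-week arrays of -4.94 and -0.10 at 3 h and -5.77 and -0.02 at 0 h.

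Whether activation acted differently in KO and WT was tested as the difference of the activation effects. In limma 0 of the 10 genes were called, as were 0 of all 18545 (0%; 688 had an unadjusted p under 0.05). Without the 21-week arrays it was 0 of the 10, where 0.105% of all genes were called. The estimates, KO minus WT, ran from -0.61 ± 0.923 for Zc3h12a to 0.26 ± 0.219 for Zc3h12d, and over 10 arrays from -1.14 ± 0.709 for Zc3h12a to 0.39 ± 0.202 for Zfp36l2. The difference for the far minus near probe of Btg1 was 0.12 ± 0.393 (adjusted p = 0.996).

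Around the 10 genes, single genes of other parts of the decay machinery were called after 3 h in each direction. Their counts stand beside shares of all genes of 7.38% higher and 9.79% lower in KO, and 13.3% higher and 16.6% lower in WT. Without the 21-week arrays these shares are 19.5% and 25.8% in KO, and 23.3% and 30.9% in WT. In the rest of the BTG/TOB family, Tob2 and Btg3 rose in each genotype, 2 of 3 genes. Tob2 was higher by 2.68 ± 0.681 in KO (adjusted p = 0.0250 in limma) and by 3.74 ± 0.681 in WT (adjusted p = 0.00327), and Btg3 by 1.15 ± 0.178 in KO and 1.20 ± 0.178 in WT. Tob1 was not called on 12 arrays (0.86 in KO and 1.87 in WT) and was called higher in each genotype without the 21-week arrays.

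Of 14 genes for the CCR4-NOT and PAN deadenylases, 0 rose and 1 fell in KO, and 1 rose and 1 fell in WT, counts no higher than those shares. The gene that fell was Parn, a poly(A)-specific ribonuclease, by -0.87 ± 0.179 in KO (adjusted p = 0.0106 in limma) and -1.10 ± 0.179 in WT (adjusted p = 0.00196). Cnot11, a subunit of CCR4-NOT, rose in WT by 0.92 ± 0.199. The median over the 14 was 0.37 in KO and 0.41 in WT. Without the 21-week arrays 8 of 14 were called higher and 3 lower in KO, and 8 higher and 4 lower in WT.

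Of 9 decapping and 5′ to 3′ decay genes, Dcp1b, which encodes a decapping cofactor, fell by -0.76 ± 0.150 in KO (adjusted p = 0.00862 in limma) and -1.20 ± 0.150 in WT (adjusted p = 0.000539). Patl1, a decapping activator, rose in WT by 0.98 ± 0.298. Of 17 exosome and nonsense-mediated decay genes, 0 rose and 2 fell in KO, and 1 rose and 3 fell in WT. The exosome subunits Exosc7 and Exosc5 fell in each genotype. Exosc7 fell by -1.09 ± 0.207 in KO and -1.47 ± 0.207 in WT, and Exosc5 by -0.88 ± 0.202 in KO and -1.12 ± 0.202 in WT. Exosc10 fell in WT (-0.58 ± 0.148). In the fit over 10 arrays 3 of the 9 decapping genes were called higher and 1 lower in KO, and 5 higher and 1 lower in WT, while of the 17 exosome and nonsense-mediated decay genes 3 were higher and 6 lower in KO, and 5 higher and 7 lower in WT. Among 5 other AU-rich element binding proteins, Elavl1, which stabilises such transcripts, rose in WT by 0.74 ± 0.213 (adjusted p = 0.0254 in limma), and 0 of 5 were called in KO. Over 10 arrays 1 of the 5 was called higher in KO and 3 in WT.

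Of 6 tested regulators of Regnase and Roquin, 2 rose and 1 fell in KO, and 3 rose and 1 fell in WT. The counts were the same without the 21-week arrays. Arid5a, which binds and protects stem-loop transcripts that Regnase-1 cuts, rose by 1.49 ± 0.176 in KO (adjusted p = 0.00103 in limma) and 0.99 ± 0.176 in WT (adjusted p = 0.00293). Bcl10, which encodes a partner of MALT1, was higher by 1.33 ± 0.199 in KO and 1.24 ± 0.199 in WT. N4bp1, an endonuclease related to Regnase-1, rose in WT by 0.80 ± 0.236.

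The list of known targets of these decay factors held 20 genes, of which 16 were tested, Zc3h12a among them. In KO 3 rose and none fell, and in WT 5 rose and none fell. With 10 arrays 7 rose in KO and 10 in WT, and again none fell. Zc3h12a was 1 of those 10 in WT, where its rise was built into its selection and does not count as support. Il10 rose by 4.19 ± 0.294 in KO and 3.01 ± 0.294 in WT, Nfkbid by 2.58 ± 0.508 in KO and 2.62 ± 0.508 in WT, and Ctla4 by 2.56 ± 0.666 in KO and 2.28 ± 0.666 in WT. Ier3 (1.98 ± 0.356) and Irf4 (1.87 ± 0.562) rose in WT. On 12 arrays Ier3 was also the 1 gene of these lists called between genotypes, higher in KO at 0 h by 2.09 ± 0.356 (adjusted p = 0.0187 in limma). Without the 21-week array 5 of the 16 targets were called at 0 h, where 6.51% of all genes were. Ier3 (1.94) and Ccl3 (2.93) were then higher in KO, and Tnfrsf4 (-1.08), Icos (-0.78) and Ctla4 (-0.60) lower. In that fit 3 of the 8 Treg markers, Ctla4 among them, and 3 of the 10 T cell markers were also called lower in KO at 0 h. Foxp3 was the 1 Treg marker called higher in KO (2.89, adjusted p = 0.0145 in limma). Its probe was well above background only on KO arrays, so a higher level in KO was built into its selection. Of the 12 macrophage and monocyte markers, 10 were also called higher in KO at 0 h (11 without the 21-week array), and the part of these markers in the target differences was not tested.

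**Figure D4:**
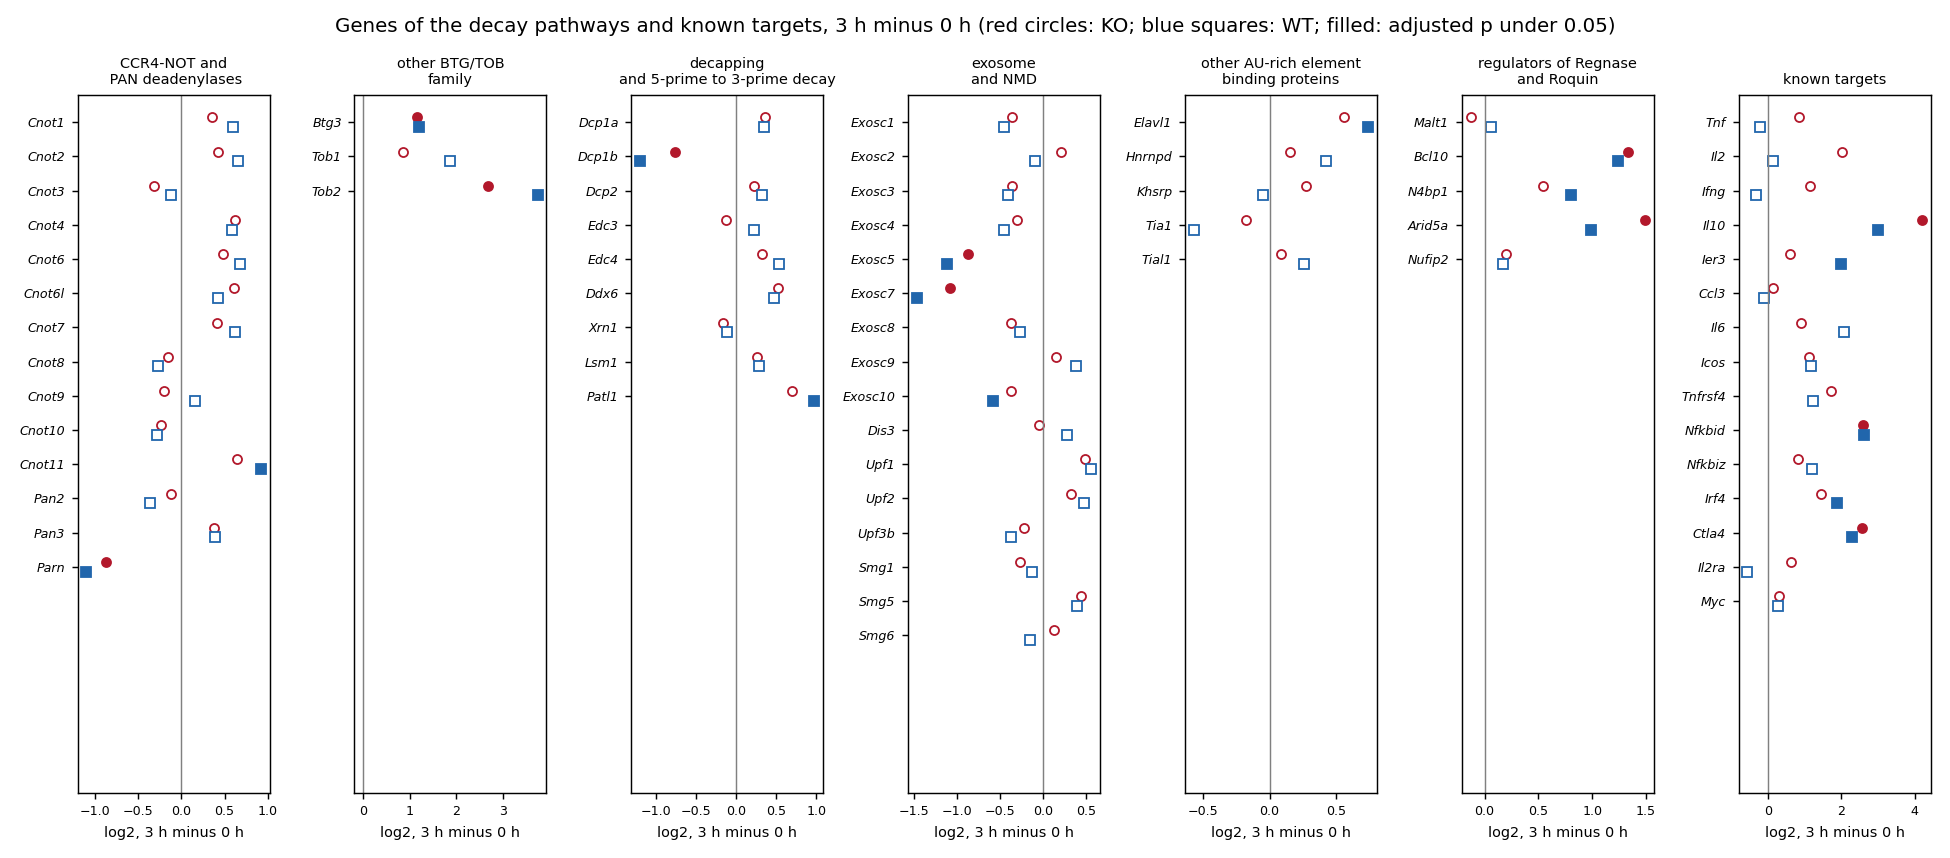
Log2 difference between 3 h and 0 h for tested genes of each list other than the 10 members and those not reported here, with KO as red circles and WT as blue squares; filled symbols have an adjusted p under 0.05. Parn, Dcp1b, Exosc5 and Exosc7 lie left of 0 and filled in each genotype, and Btg3, Tob2, Bcl10, Arid5a, Il10, Nfkbid and Ctla4 right of 0 and filled in each genotype.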

How the data were processed

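RNA was measured on 12 single-colour Agilent arrays. The spot intensity values in the deposited scanner files came from Agilent Feature Extraction. Its version is 10.7.3.1 per the file headers, whereas the submitters' processing notes give version 11 and also name Partek. They are background-subtracted within each array and not normalized between arrays, per the file headers. The authors' deposited log2 table of the same arrays served as an alternative; its scaling is not stated, each column has a median of 3.893, and its rank correlation with its own array was 0.9997 or more.

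Outlier spots were left out, spots of a probe were averaged on the log2 scale, and every array's 75th percentile was set to 0, taken over the 19799 probes that passed the scanner's detection flag on all 12 arrays. That flag marked 43.07% to 54.63% of probes as well above background, and the number of arrays limits precision. Probes flagged as detected throughout 1 or more groups were kept, and the brightest stood for a gene (18545 genes). Of 55681 probes, 27509 were named through their accession, 3549 by symbol, 404 by synonym and 24219 as in the file. A model of 4 group means (8 residual degrees of freedom) was fitted in limma 3.58.1 with R 4.3.3, with 5 comparisons and Benjamini-Hochberg adjustment over all genes. The fit and the probe-pair fit were tested on simulated data.

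The members and lists were chosen with earlier results of these data known. The text names all members, the 3 genes nearest to each of the 2 members with the widest range of group means, up to 3 called genes per pathway list and comparison with the largest statistic, and Cd83. Alternatives covered scaling, background, filter, probe choice, arrays from 21-week mice, weights and single arrays left out. The values of some genes of the pathway lists are not reported here.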

Additional observations from a re-analysis of the deposited data

How the results depend on the processing

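The count of members called in KO versus WT stayed at 0 at 0 h and at 3 h, and in the difference of activation effects, under every alternative run. Counts after 3 h moved. In KO, 2 members on 12 arrays became 6 without the arrays from 21-week mice, 6 with 21-week age as a term, 6 with array quality weights, 1 with probes well above background on all 12 arrays (7 members tested), and 0 with no shift between arrays, with no filter on dim probes, or with the 6 KO arrays alone. In WT, 3 members became 7 without those arrays, 7 with the age term, 8 with weights, 7 with the 6 WT arrays alone, and 1 with no shift, with no filter or with probes detected on all 12 arrays. Leaving out 1 array at a time gave 0 to 6 in KO (6 without KO replicate 3 at 3 h) and 1 to 5 in WT (5 without that same array). Over all genes, the calls in KO ran from 148 (the KO arrays alone) to 8652 (without the 21-week arrays), against 3183, and in WT from 2822 (no shift) to 12216 (weights), against 5543. With no shift the median difference of all genes was -0.34 after 3 h in KO, against -0.0428 with the shift, and -0.36 in KO versus WT at 3 h, against 0.0414; the calls in KO activation then split into 268 higher and 2193 lower, against 1368 and 1815. Members called on 12 arrays kept their direction under all alternatives in which they were tested, and Btg2 in WT lost its call with no shift (adjusted p = 0.0848). The far minus near difference of Btg1 ran from -2.27 to -1.59 in KO and from -2.10 to -1.93 in WT. Averaging the Btg1 probes gave -0.69 in KO and -0.82 in WT, neither called. No paired analysis was possible because the labels of the arrays give positions on slides and neither replicate numbers nor mice. Slide as a random block could not be fitted, since each slide is fixed by the groups on it.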

Other observations

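The lower far probe of Btg1 after 3 h belonged to a direction shared by many genes. Among the 2964 genes with a near and a far probe of the same transcript, the far minus near difference was called lower after 3 h for 202 and higher for 22 in KO, and lower for 468 and higher for 41 in WT, in limma at an adjusted p under 0.05. The median change over all 2964 genes was -0.12 on the log2 scale in KO and -0.21 in WT. Leaving out the arrays from 21-week mice gave 407 lower and 60 higher of 3027 genes in KO, and 753 lower and 81 higher in WT. The KO comparison lies within 1 slide and the WT comparison across 2, and what sets this direction was not tested.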
